A study of Mus musculus with 27 samples.

Results

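Dppa2, Dppa3, Dppa4 and Dppa5a are mouse genes named for developmental pluripotency association. They were chosen by symbol and are 4 of the 20847 gene symbols found across 4 deposited tables of raw read counts. All 4 were listed for embryonic stem cells (14006 genes), for oocytes at the germinal vesicle (GV) stage (16598 genes) and for oocytes past the GV stage (16304 genes). Dppa2 alone was listed for round spermatids (17715 genes). In stem cells, Dppa3 mRNA was 3.61-fold higher without Ythdf1, 2.03-fold higher without Ythdf2, 4.29-fold higher without Ythdf1, Ythdf2 and Ythdf3 together, and 3.28-fold higher without Mettl3. The call without Ythdf2 depended on the test method, and a 1.65-fold rise without Ythdf3 did not pass. Dppa2 rose 1.97-fold in the triple knockout. In GV oocytes without Mettl3, Dppa3, Dppa4 and Dppa5a rose 2.33-fold to 2.86-fold, while Dppa2 was lower without passing the main test. Of all tested genes, 25.1% were called changed in the triple knockout, 30.4% in stem cells without Mettl3 and 28.8% in GV oocytes without Mettl3.

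The study asked, by its title, whether the Ythdf readers of N6-methyladenosine (m6A) stand in for one another. The 27 libraries fell into 12 groups. The stem cells were KH2 cells, a line from C57BL/6 and 129/Sv, grown in serum with LIF, and their polyadenylated RNA was made into ScriptSeq v2 libraries. They were wild type, Ythdf1-/-, Ythdf2-/-, Ythdf3-/-, Ythdf1-/-Ythdf2-/-Ythdf3-/- (the triple knockout) or Mettl3-/-, with 2 libraries (A and B) in each group. The labels do not say whether each line is 1 clone or whether A and B were separate cultures. GV oocytes came from Mettl3f/f Zp3-Cre+ females (3 libraries) and Mettl3f/f Zp3-Cre- controls (4 libraries), on a background of BDF1, C57BL/6 and Jax#003651. Both groups carry the floxed Mettl3 allele, the Zp3 promoter drives Cre in growing oocytes, and each library pooled the oocytes of 1 mouse. Post-GV oocytes were Ythdf2-/- (2 libraries) or Ythdf2+/- (3 libraries), so these controls had lost 1 copy of Ythdf2, and both oocyte sets were SMART-seq2 libraries. Round spermatids were sorted from Ythdf2-/- males (2 libraries) and 1 Ythdf2+/+ male, with ribosomal RNA removed. The post-GV and spermatid mice were CB6F1 crossed with C57BL/6. Ages are not given in the labels.

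Methylation of adenosine to m6A is placed on mRNA by a complex whose catalytic subunit is Mettl3, mostly within short sequences around an adenosine followed by cytosine. The cytoplasmic proteins Ythdf1, Ythdf2 and Ythdf3 bind it, and marked mRNAs are often degraded sooner. Dppa3, also called Stella or PGC7, is a maternal protein laid down in the oocyte that guards DNA methylation in the early embryo by restraining Uhrf1 and Tet3. Dppa2 and Dppa4 are a pair of SAP-domain chromatin proteins that bind as a heterodimer and act above Dux and the programme of genes first switched on in the 2-cell embryo. Dppa5a, or Esg1, is a KH-domain RNA-binding protein of pluripotent and germ cells.

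The mRNA sequences are shown first because the enzyme and the readers act through short motifs in mRNA. Every GGAC followed by any base but G, here called a GGAC motif, in the longest coding transcript of Dppa2, Dppa3 and Dppa4 is given from GENCODE M21 (build GRCm38), on the sense strand, 5′ to 3′, with the motif in capitals. Such motifs are the part of the m6A consensus that begins with GGAC.
Dppa2, 5′ UTR, chr16:48303990-48303994, + strand: atcagacaGGACTtgtgaaaa
Dppa2, coding, chr16:48317365-48317369, + strand: ttcttgctGGACAgacctggg
Dppa2, 3′ UTR, chr16:48319211-48319215, + strand: actccagtGGACCtggaaatt
Dppa3, coding, chr6:122626558-122626562, + strand: ccaatgaaGGACCctgaaact
Dppa3, coding, chr6:122629918-122629922, + strand: tttgaacgGGACAgtgagcca
Dppa4, coding, chr16:48289083-48289087, + strand: agacgccaGGACAgactcgta
Dppa4, coding, chr16:48292935-48292939, + strand: ggttcatgGGACCagccttcc
Dppa4, coding, chr16:48292988-48292992, + strand: tccacgctGGACAagcctggg
Dppa4, coding, chr16:48293074-48293078, + strand: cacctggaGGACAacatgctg
Dppa4, 3′ UTR, chr16:48293734-48293738, + strand: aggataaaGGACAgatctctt
The Dppa5a transcript held no GGAC motif, and 1 of its 8 matches to the wider consensus is given for comparison.
Dppa5a, coding, chr9:78367819-78367823, − strand: ctcccgaaGAACTtatcgagg

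Dppa2 thus had 3 GGAC motifs in 2447 bases, Dppa3 had 2 in 833, Dppa4 had 5 in 1479 and Dppa5a had 0 in 619. Per kb of transcript that is 1.23, 2.4, 3.38 and 0, against a median of 3.47 over 21901 coding genes. GGAC with T as the last base occurred once, in Dppa2, whereas 87.6% of coding genes hold at least 1 in a longest transcript of any length. In 3′-end windows of equal length the share was 89.2% at the length of Dppa2, 54.2% at that of Dppa3, 74.8% at that of Dppa4 and 43.8% at that of Dppa5a. The windows of equal length at the 3′ ends of other coding transcripts held a GGAC motif in 99.5% of genes at the length of Dppa2, 87.9% at that of Dppa3, 97% at that of Dppa4 and 79.4% at that of Dppa5a. The wider consensus, 18 sequences of 5 bases that include the GGAC motifs, reads any base but C, then a purine, then AC, then any base but G. It was matched 60 times in Dppa2, 18 times in Dppa3, 33 times in Dppa4 and 8 times in Dppa5a. At 12.9 matches per kb Dppa5a was denser than only 3.25% of coding genes, while Dppa2 at 24.5 per kb was denser than 87.8%. Dppa3, at 21.6 per kb, lay near the median of 20.3. These are matches of letters, not sites: m6A itself was not measured in these libraries.

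On the genome, Dppa4 (chr16:48283733-48294237, 7 exons in its longest transcript) ends 9.67 kb before Dppa2 (chr16:48303908-48319723, 8 exons) on the same strand. Dppa3 (chr6:122626410-122630272, 4 exons) lies on the + strand 77.2 kb from Nanog. Dppa5a (chr9:78367052-78368177, 3 exons) is on the − strand, 7.93 kb from Ooep. Each gene shares stretches of sequence with other annotated genes. Of the 50-base windows of its longest transcript, 29.1% for Dppa2, 17.7% for Dppa3, 35.9% for Dppa4 and 38.6% for Dppa5a also occur in another annotated gene, among them Dppa3-ps, Dppa5b and Dppa5c. How the authors' counting placed reads from such stretches, and whether it used the strand, is not given in the sources used here, so the values of all 4 genes carry that uncertainty.

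Stem cell libraries were the shallowest, with totals between 612598 and 1111764 counts. Totals lay between 6484397 and 18181397 counts at the GV stage, between 12409822 and 25015081 past it and between 18843689 and 32759740 for spermatids. Mettl3 counts checked the label of its knockouts, at 16.6 ± 2.01 CPM (the count scaled to a common library total, mean ± SD, n = 2) against 139 ± 2.29 (n = 2) in stem cells and 1.91 ± 1.37 (n = 3) against 27.2 ± 11.7 (n = 4) in GV oocytes. Among the Ythdf genes in their own single knockout, Ythdf1 was at 176 ± 1.89 CPM against 176 ± 4.46 in wild type, Ythdf3 at 76.9 ± 7.23 against 69.5 ± 4.95 and Ythdf2 at 14.3 ± 5.39 against 25.5 ± 0.821 (14 and 9 counts against 29 and 28). In the triple knockout they were at 161, 72.8 and 33.0 CPM for Ythdf1, Ythdf3 and Ythdf2. In post-GV oocytes Ythdf2 was higher in the libraries labelled Ythdf2-/- (177 ± 29.4 CPM, n = 2) than in the heterozygotes (98.6 ± 30.5, n = 3). Whole-gene counts cannot check the label of a mutation that leaves the transcript in place. Stem cells had all 5 stem cell markers listed, at 2397 to 2932 CPM in sum, and 5 of 6 oocyte markers were not in their table. The sixth, Zp3, was at 29.4 to 34.2 CPM in wild type, 53.0 to 53.4 in the triple knockout and 49.3 to 62.1 in Mettl3-/-. All 4 primitive endoderm markers were listed, and their sum was 35.7 to 37.8 CPM in wild type, 53.0 to 53.4 in the triple knockout, 22.3 to 23.0 in Mettl3-/- and 16.7 to 17.3 in Ythdf3-/-. Of 5 fibroblast feeder markers 4 were listed, Thy1 among them, with a sum of 53.5 to 62.2 CPM in wild type. It was 66.7 to 71.1 CPM in Ythdf1-/-, 31.0 to 34.9 in Ythdf2-/- and 56.9 to 62.5 in Ythdf3-/-. The triple knockout had 81.1 to 87.6 CPM of feeder markers and Mettl3-/- 49.3 to 60.9. The part of such cells in the Dppa values was not tested. GV oocytes had 6 of 6 oocyte markers, at 12711 to 23240 CPM in sum, and spermatids had 6 of 6 of theirs. The A and B libraries of each stem cell group differed by less than counting noise in 6 of 6 groups (chi-square per gene 0.675 to 0.832), so stem cell p-values measure little beyond counting error and their spread may be technical. In the other cells the same measure was 29.0 to 417 between libraries of a group.

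In wild type stem cells the genes stood in the order Dppa5a, Dppa2, Dppa4 and Dppa3 when counts were set per kb of exon. Dppa5a was at 712 ± 9.11 CPM per kb (mean ± SD, n = 2), Dppa2 at 51.6 ± 2.21, Dppa4 at 47.2 ± 3.01 and Dppa3 at 38.2 ± 4.54. The order of Dppa2 and Dppa4 depended on the length used. By the length of the longest transcript Dppa4, at 53.0 CPM per kb, stood above Dppa2. GV control oocytes had another order, with Dppa3 at 2494 ± 272 CPM per kb (n = 4), Dppa5a at 973 ± 259, Dppa2 at 59.1 ± 12.2 and Dppa4 at 9.11 ± 2.55. In post-GV heterozygotes Dppa3 stood at 2915 ± 431 CPM per kb (n = 3), Dppa2 at 22.6 ± 9.80, Dppa5a at 14.6 ± 7.15 and Dppa4 at 0.361 ± 0.128, and there Dppa2 and Dppa5a did not differ beyond their spread. The tables were normalised separately and come from different library kits, so no level was tested from one cell type to another.

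**Figure D1:**
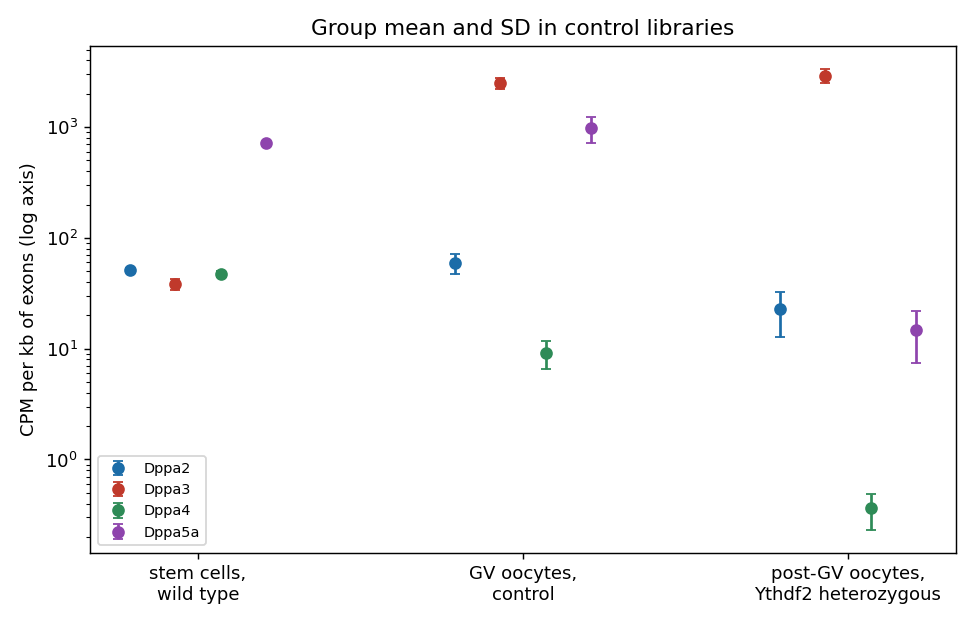
Level of each gene per kb of exon (CPM per kb, log axis) in the control libraries of each cell type; points are group means and bars their SD. Dppa5a is the highest of the 4 in wild type stem cells, at 712 CPM per kb, and Dppa3 is the highest in GV controls, at 2494 CPM per kb.

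Dppa3, the maternal guardian of DNA methylation, was the gene of the 4 that moved most in stem cells. Wild type libraries A and B had 36.9 and 31.2 CPM. Ythdf1-/- cells had 118 and 129 CPM, Ythdf2-/- cells 69.8 and 68.7, and Ythdf3-/- cells 66.9 and 47.8. Triple knockout cells had 154 and 140 CPM and Mettl3-/- cells 96.9 and 123. Every knockout library was above both wild type libraries, and the Ythdf3-/- pair was the closest to them. The share of all genes whose groups did not overlap was not counted, here or in the comparisons below. Overlap of libraries is therefore given as description only. The log2 change (± SE, from edgeR's quasi-likelihood test with Benjamini-Hochberg adjustment over 11951 genes, calls at an adjusted p under 0.05) was 1.85 ± 0.15 in Ythdf1-/- (adjusted p = 1.03e-16) and 1.02 ± 0.19 in Ythdf2-/- (adjusted p = 0.000441). In the triple knockout it was 2.10 ± 0.15 (edgeR adjusted p = 1.28e-19), and in Mettl3-/- 1.71 ± 0.16 (adjusted p = 1.37e-14). Ythdf3-/- gave 0.72 ± 0.23, which did not pass (edgeR adjusted p = 0.0621). The Ythdf2-/- call was not made by DESeq2 (adjusted p = 0.247), and the authors' deposited table gives it an adjusted p of 0.0019.

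Differences between the knockouts were tested in the same fit of 12 libraries. For Dppa3, 10 of the 15 pairs of groups differed. Ythdf2-/- and Ythdf3-/- cells lay below Ythdf1-/- cells, by log2 differences of -0.83 and -1.13. The triple knockout stood above Ythdf2-/- by 1.08 and above Ythdf3-/- by 1.38 on the log2 scale, but its difference from Ythdf1-/- was 0.25, with a 95% interval of -0.03 to 0.52 (edgeR adjusted p = 0.287). Mettl3-/- cells were 0.69 above Ythdf2-/- and 0.99 above Ythdf3-/-, and did not differ by the test from Ythdf1-/- (-0.14, adjusted p = 0.543) or the triple knockout (-0.39, adjusted p = 0.0548). The Dppa3 change of the triple knockout was smaller than the 3 single changes added on the log2 scale, by -1.50 ± 0.39 (edgeR adjusted p = 0.0197). That call was lost without wild type A (adjusted p = 0.0709), wild type B (0.272), Ythdf3-/- A (0.159) or triple knockout B (0.057), and under DESeq2.

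Dppa2, a partner in the chromatin heterodimer, rose in the triple knockout only among the 5 lines tested against wild type. Its levels were 123 and 130 CPM in wild type A and B and 262 and 238 CPM in the triple knockout. Ythdf1-/- cells had 158 and 142 CPM, Ythdf2-/- cells 124 and 119, Ythdf3-/- cells 151 and 166, and Mettl3-/- cells 102 and 101. Only the Ythdf2-/- libraries overlapped wild type, and the Mettl3-/- libraries were the lowest of the 12. The log2 change was 0.98 ± 0.09 in the triple knockout (edgeR adjusted p = 6.39e-14). It was 0.25 ± 0.12 in Ythdf1-/- (edgeR adjusted p = 0.322), -0.06 ± 0.13 in Ythdf2-/- (0.925), 0.33 ± 0.13 in Ythdf3-/- (0.167) and -0.32 ± 0.14 in Mettl3-/- (0.0787), none of which passed. Tested directly, the triple knockout was above Ythdf1-/- by 0.73, Ythdf2-/- by 1.04 and Ythdf3-/- by 0.65, and Mettl3-/- was below the triple knockout by -1.30, all called among the 7 of 15 pairs that differed. The part of the Dppa2 change beyond the sum of the single knockouts was 0.46 ± 0.25 (edgeR adjusted p = 0.46).

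Dppa4, the other partner, was called in none of the 5 lines. Wild type A and B had 82.0 and 74.9 CPM, and the triple knockout had 92.0 and 91.7. Ythdf1-/- cells had 72.2 and 71.1 CPM, Ythdf2-/- cells 58.2 and 65.2, Ythdf3-/- cells 73.6 and 86.4, and Mettl3-/- cells 85.4 and 63.3. The Ythdf3-/- and Mettl3-/- libraries overlapped wild type. The log2 changes ran from -0.34 ± 0.18 in Ythdf2-/- (edgeR adjusted p = 0.441) to 0.23 ± 0.17 in the triple knockout (0.339), with a 95% interval of -0.11 to 0.56 for the latter. Of the 15 pairs, the triple knockout against Ythdf2-/- alone differed, by 0.57 (edgeR adjusted p = 0.0272). That difference was lost on leaving out any 1 of those 4 libraries, and under DESeq2. Over the 12 libraries the levels of Dppa2 and Dppa4 had a Pearson r of 0.63 on the log2 scale, as a description of libraries that share their groups.

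Dppa5a, the KH-domain protein, was the most abundant of the 4 and fell in Mettl3-/- cells. Wild type A and B had 437 and 445 CPM, Mettl3-/- cells 340 and 334, and the triple knockout 448 and 472. Ythdf1-/- cells had 497 and 545 CPM, Ythdf2-/- cells 544 and 524, and Ythdf3-/- cells 540 and 556. No knockout group overlapped wild type, with Mettl3-/- below it and the others above. In Mettl3-/- the log2 change was -0.39 ± 0.07 (edgeR adjusted p = 1.72e-05), and the Mettl3-/- level was also below each Ythdf line, by log2 differences of -0.63, -0.66, -0.71 and -0.45 for Ythdf1-/-, Ythdf2-/-, Ythdf3-/- and the triple knockout. The single knockouts rose by 0.24 ± 0.06 (edgeR adjusted p = 0.0116), 0.27 ± 0.06 (0.00607) and 0.32 ± 0.07 (0.00142) for Ythdf1-/-, Ythdf2-/- and Ythdf3-/-. The triple knockout changed by 0.06 ± 0.07 (edgeR adjusted p = 0.571), with an interval of -0.08 to 0.21. It lay below Ythdf2-/- (-0.21, adjusted p = 0.0394) and Ythdf3-/- (-0.25, adjusted p = 0.0186), and 0.77 ± 0.13 on the log2 scale below the 3 single changes added (-0.77, edgeR adjusted p = 6.19e-05). DESeq2 did not call that departure (adjusted p = 0.38), and it called 5 of the 15 Dppa5a pairs where edgeR called 10 (8 to 10 on leaving out 1 library).

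The 3 small rises of Dppa5a rest on few libraries. DESeq2 called none of them (adjusted p of 1, 1 and 0.749), and the authors' deposited table gives 0.359 for Ythdf1-/-. In edgeR the Ythdf1-/- call was lost without wild type A (adjusted p = 0.111), wild type B (0.0615) or Ythdf1-/- B (0.416). The Ythdf2-/- call was lost without wild type A (0.0691), Ythdf2-/- A (0.131) or Ythdf2-/- B (0.0519), and the Ythdf3-/- call without Ythdf3-/- B (0.106).

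**Figure D2:**
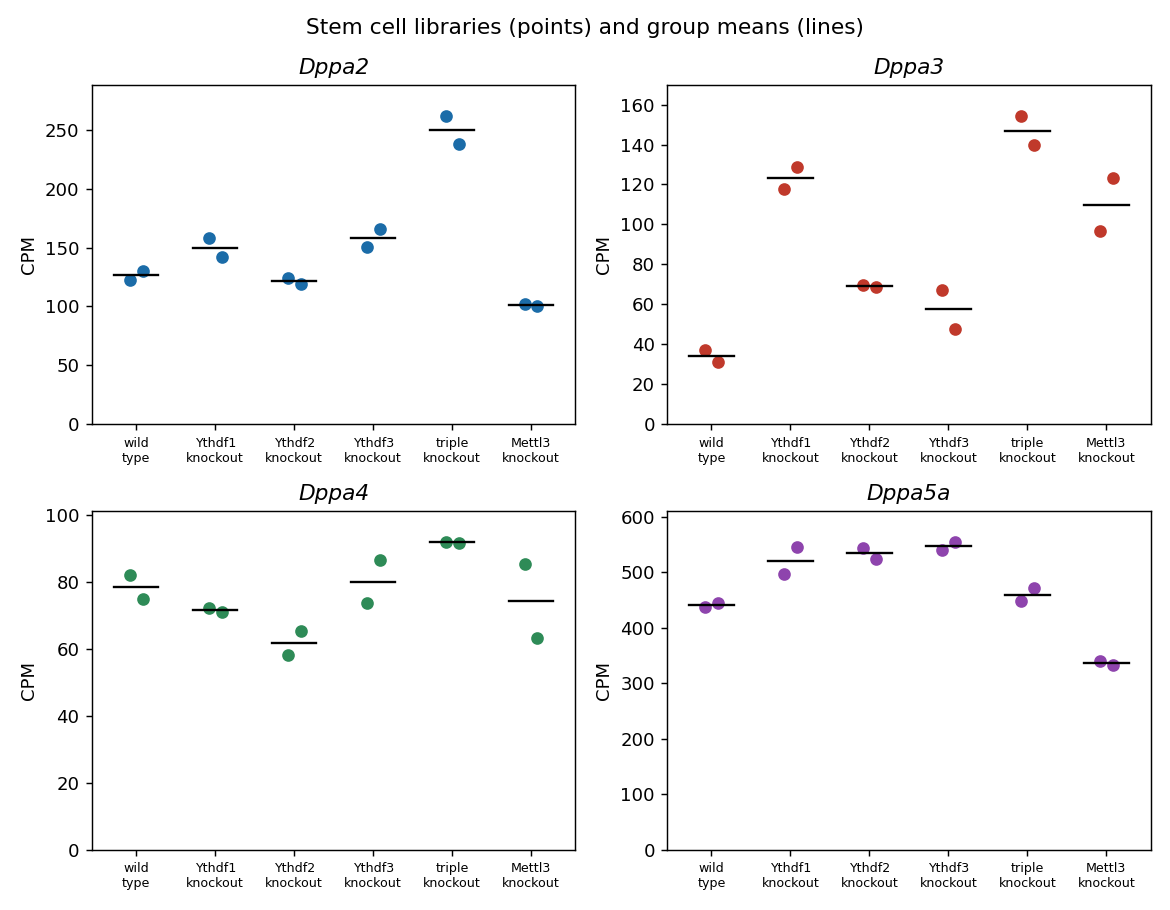
Level (CPM, axis starting at 0) of Dppa2, Dppa3, Dppa4 and Dppa5a in each of the 12 stem cell libraries by group; points are libraries and lines are group means. The Dppa3 points of every knockout sit above the wild type points (36.9 and 31.2 CPM), while those of Dppa4 stay between 58.2 and 92.0 CPM.

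Counted by line, 2 of the 4 genes were called in Ythdf1-/- (Dppa3 and Dppa5a), where 3.45% of all tested genes were called. In Ythdf2-/- the same 2 genes were called, against 1.91% of genes, and in Ythdf3-/- 1 (Dppa5a), against 2.84%. The triple knockout called 2 (Dppa2 and Dppa3) with 25.1% of genes called, and Mettl3-/- called 2 (Dppa3 up and Dppa5a down) with 30.4%. A call in either of these last lines is therefore common among genes. The departure from the sum of single knockouts was called for 2 of 4 genes and for 1.88% of all genes. Between the knockout lines, the share of genes called was 1.09% for Ythdf2-/- against Ythdf1-/-, 0.318% for Ythdf3-/- against Ythdf1-/- and 0.502% for Ythdf3-/- against Ythdf2-/-. It was 10.5%, 13.6% and 9.41% for the triple knockout against Ythdf1-/-, Ythdf2-/- and Ythdf3-/-. For Mettl3-/- it was 25.3%, 21.6%, 23.0% and 19.0% against Ythdf1-/-, Ythdf2-/-, Ythdf3-/- and the triple knockout. All of these comparisons with wild type share the same 2 control libraries.

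In GV oocytes, 3 of the 4 genes rose without Mettl3, where 28.8% of 13551 tested genes were called. Dppa3 had 5806, 5776 and 3949 CPM in Mettl3f/f Zp3-Cre+ libraries 1 to 3 and 2304, 2531, 2062 and 2001 CPM in control libraries 1 to 4. All 3 knockout libraries were above all 4 controls, and knockout 3 was the nearest to them. The change was 1.22 ± 0.20 on the log2 scale (edgeR adjusted p = 0.00224), or 2.33-fold. Dppa5a had 1644, 2216 and 1171 CPM against 736, 494, 436 and 744 in the controls, again without overlap. It rose by 1.48 ± 0.27 (edgeR adjusted p = 0.00421), or 2.78-fold.

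Of the chromatin pair, Dppa4 was called in these oocytes and Dppa2 was not. Dppa4 had 51.9, 44.8 and 33.2 CPM without Mettl3 and 18.7, 18.0, 9.44 and 14.4 CPM in controls, and rose by 1.52 ± 0.30 (edgeR adjusted p = 0.00565), or 2.86-fold. Dppa2 had 90.2, 98.0 and 103 CPM without Mettl3 and 180, 129, 113 and 157 CPM in controls. Its knockout libraries were all below its controls, yet the change of -0.57 ± 0.21 did not pass (edgeR adjusted p = 0.0678). The Dppa2 change was called with the RLE scaling (0.0473), with DESeq2 (0.0309) and without control 3 (0.0213). Dppa1, a relative by name only, had 4.53, 6.94 and 4.21 CPM against 36.2, 37.3, 22.1 and 18.2. The authors' deposited table gives log2 changes of 1.14, 1.43, 1.39 and -0.66 for Dppa3, Dppa4, Dppa5a and Dppa2, with adjusted p of 0.433, 0.562, 0.568 and 0.89, none of which passes. DESeq2 run here on the raw counts gave the same log2 changes with adjusted p of 1.31e-05, 0.000134, 0.000164 and 0.0309, so how the deposited p-values of this comparison were made is unclear. The deposited and recomputed adjusted p also differ for the single Ythdf knockouts of stem cells.

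Markers of the surrounding granulosa and cumulus cells moved with the GV groups. Of 7 such markers, 6 were in the table (Ptx3 was not), and their sum was 9.05, 133 and 18.9 CPM in knockout libraries 1 to 3 and 202, 443, 929 and 203 CPM in controls 1 to 4. Oocyte markers overlapped, with 15336 to 20931 CPM in knockout libraries and 12711 to 23240 in controls. Without controls 2 and 3, the controls with the highest granulosa sums and a set chosen after seeing the data, Dppa3 (1.15), Dppa4 (1.27) and Dppa5a (1.06) were called, and Dppa2 was called lower (-0.91, edgeR adjusted p = 0.0205). The controls left, at 202 and 203 CPM of granulosa markers, are still above every knockout library, so the part of these cells in the Dppa values was not tested. In bulk libraries fewer cells of a type and less RNA per cell cannot be told apart.

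**Figure D3:**
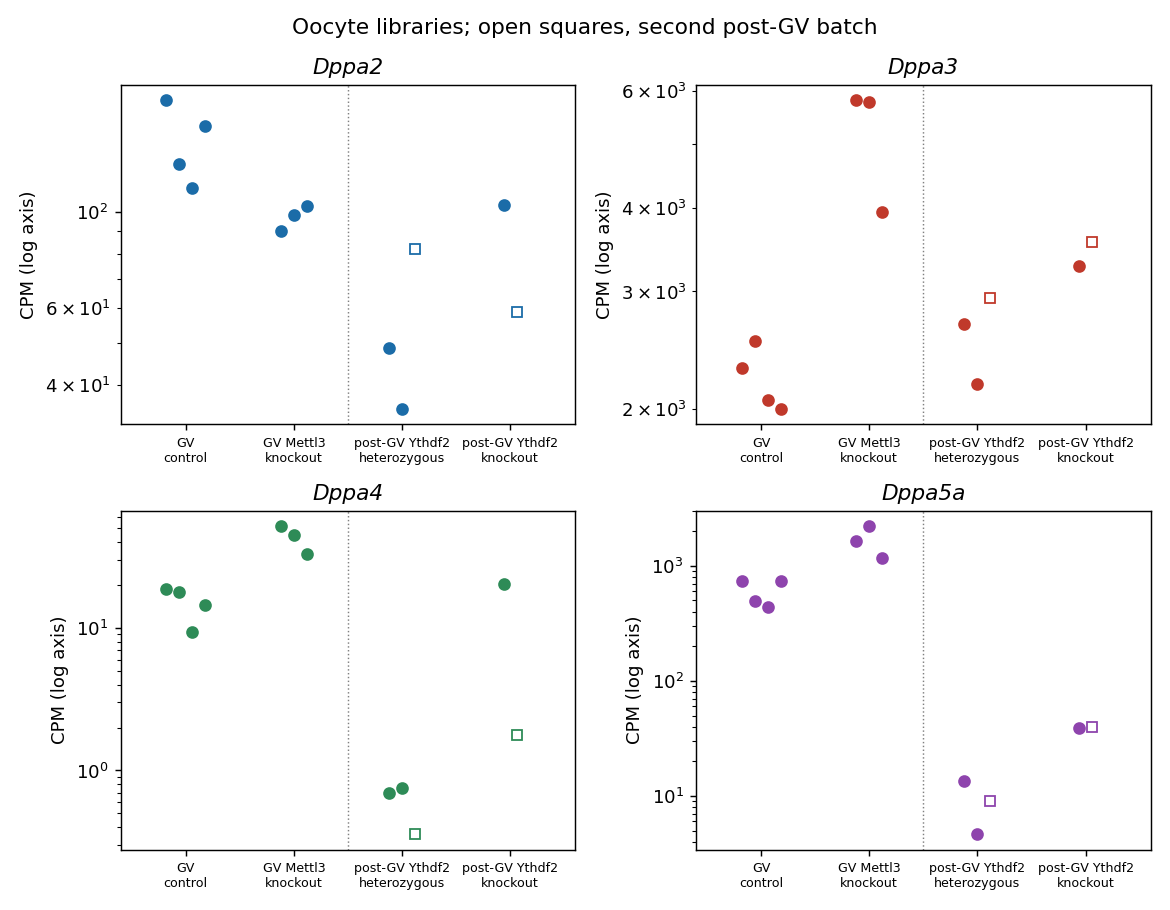
Level (CPM, log axis) of the 4 genes in each GV and post-GV oocyte library; points are libraries by genotype, with open squares for the second post-GV batch. In GV oocytes the Dppa3, Dppa4 and Dppa5a points without Mettl3 lie above every control, and those of Dppa2 (90.2 to 103 CPM) lie below.

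In post-GV oocytes no gene of the 4, and 0 of 13910 genes (0%), was called between Ythdf2-/- and Ythdf2+/- by edgeR without a batch term, with 782 genes at an unadjusted p under 0.05 and 94 called by DESeq2. No label names a batch for these libraries. The shifts in the authors' batch-adjusted columns over 5244 genes were alike in Ythdf2-/- library 1 and heterozygotes 1 and 2, and opposite in Ythdf2-/- 2 and heterozygote 3, so these sets were inferred to be a first and a second batch. With this inferred batch as a term 1.85% of genes were called, and 2 of the 4 were among them. Dppa5a had 38.8 and 39.6 CPM in Ythdf2-/- libraries 1 and 2 and 13.5, 4.64 and 9.01 CPM in heterozygotes 1 to 3, without overlap. Its change was 2.11 ± 0.56 without the batch term (edgeR adjusted p = 0.738) and 2.11 ± 0.48 with it (adjusted p = 0.0325). Within the first batch the difference was 2.29 and within the second 2.13 on the log2 scale.

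Dppa4 had few reads in these oocytes except in 1 library. It had 341 and 23 counts in Ythdf2-/- libraries 1 and 2 and 19, 11 and 7 counts in the heterozygotes, which is 20.4 and 1.78 CPM against 0.696, 0.750 and 0.356. Both Ythdf2-/- libraries were above all heterozygotes, the first by far the more. The log2 change was 4.20 ± 1.09 (edgeR adjusted p = 0.738), and 3.97 ± 0.65 with the batch term (adjusted p = 0.00464). Without Ythdf2-/- library 1 it was 1.56 (edgeR adjusted p = 0.514), and within the 2 batches it was 4.82 and 2.32. The authors' deposited table gives 3.86 for Dppa4 and 2.03 for Dppa5a, with adjusted p of 4.07e-05 and 0.0023.

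Dppa3 and Dppa2 did not pass with or without the batch term. Dppa3 had 3279 and 3556 CPM in Ythdf2-/- and 2683, 2181 and 2937 CPM in the heterozygotes, without overlap, and changed by 0.39 ± 0.38 (edgeR adjusted p = 0.848). Dppa2 had 103 and 58.8 CPM against 48.5, 35.3 and 81.9 CPM, which overlapped, and its sign differed between the batches (1.32 and -0.48). Granulosa and cumulus markers summed to 79.1 and 27.8 CPM in Ythdf2-/- and 171, 148 and 77.3 in the heterozygotes (6 of 7 in the table, without Amh), and oocyte markers to 9003 and 9029 CPM against 3679 to 6075. The part of these differences in the Dppa values was not tested.

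In round spermatids Dppa2 was barely detected, with 29 and 33 counts in Ythdf2-/- libraries and 12 in the single Ythdf2+/+ library. Those are 1.53 and 1.43 CPM against 0.384 CPM. The log2 change was 1.94 ± 1.16 (edgeR adjusted p = 0.389), and 4.90% of 16031 genes were called. The wild type group has no replicate, so its spread is assumed to be that of the knockout libraries.

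**Figure D4:**
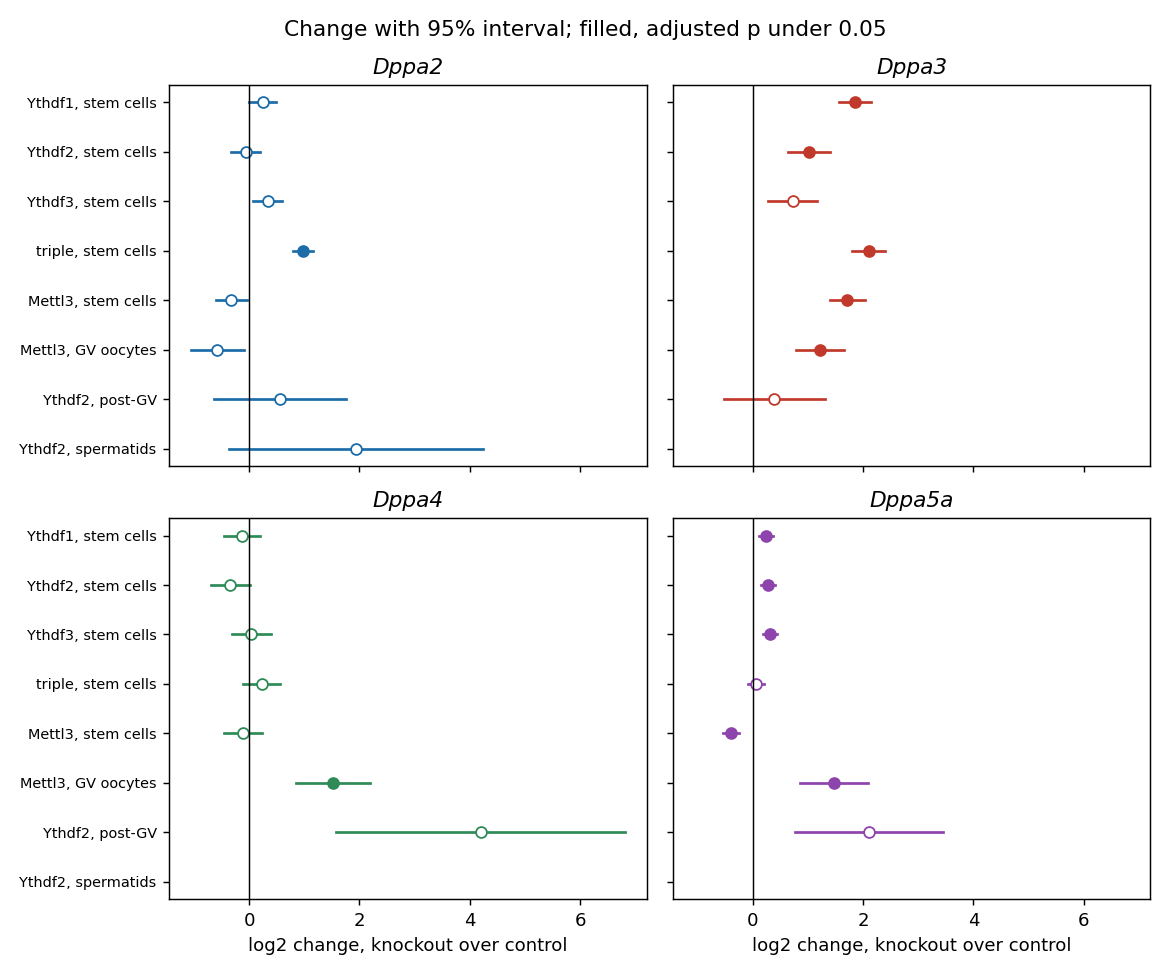
Log2 change with its 95% interval for each gene and each knockout against its own controls, from edgeR; filled points were called. Dppa3 lies above 0 in every stem cell line, Dppa5a lies below 0 in Mettl3-/- stem cells (-0.39) and above 0 in GV oocytes without Mettl3 (1.48).

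The lists that follow describe genes linked to these 4 by function or position, by their counts and median. They were chosen with earlier results of these data known, so their counts are description only. Of all tested genes, 25.1% were called in the triple knockout, 30.4% in Mettl3-/-, 3.45% in Ythdf1-/-, 1.91% in Ythdf2-/- and 2.84% in Ythdf3-/-. In GV oocytes the share was 28.8%, and the list counts stand beside these shares. The 2-cell programme, which lies downstream of Dppa2 and Dppa4, had 25 tested genes in stem cells. Its list holds gene families such as Zscan4, Usp17l and Tdpoz, so its genes are not all separate measures. In the triple knockout 24 rose and 0 fell (median log2 change 4.08), among them Usp17le (4.20 ± 0.15), Usp17lb (4.63 ± 0.18) and Usp17lc (4.03 ± 0.18), deubiquitinase genes of a multigene family whose reads cannot be surely assigned. In Ythdf1-/- 23 rose (median 2.89), in Ythdf3-/- 17 (2.07) and in Ythdf2-/- 1 (0.80). In Mettl3-/- 0 rose and 1 fell, Gm2022 (-2.18, edgeR adjusted p = 0.038), with a median of 0.02. Dppa2 was called in the triple knockout alone of these lines, and Dppa4 in none. In GV oocytes 13 genes of the programme were tested and 5 rose, among them Usp17lc (5.44 ± 0.82) and Pramef25 (5.46 ± 0.85), and 2 fell.

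Genes reported in other work as developmental targets of Dppa2 and Dppa4 moved both ways. Of 5 tested in the triple knockout 2 rose, Mael (1.29 ± 0.20) and Syce1 (0.92 ± 0.12), which act in the germ line, and 2 fell, Cdx2 (-2.35 ± 0.52), a trophoblast regulator, among them. In Mettl3-/- Syce1 rose (1.29 ± 0.11) and 3 fell, with Cdx2 at -4.54 ± 0.73 and the mesoderm gene T at -4.78 ± 0.65. In GV oocytes 4 were tested and 2 rose, Mael (1.84 ± 0.25) and Syce1 (4.28 ± 0.40). Of the neighbours of the pair on chromosome 16, Morc1, 112 kb beyond Dppa2 and active in the germ line, fell in the triple knockout (-0.29 ± 0.09) and in Mettl3-/- (-0.45 ± 0.09), and none of the 3 tested rose in any stem cell line.

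Dppa3 acts beside the DNA methylation machinery. Of its 13 genes tested in stem cells, 2 rose and 1 fell in the triple knockout, where 25.1% of all genes were called, and 1 rose and 2 fell in Mettl3-/-, where 30.4% were. Dnmt3l, the cofactor of the de novo methyltransferases, rose without the 3 readers (1.07 ± 0.12) and fell without Mettl3 (-1.58 ± 0.20). In GV oocytes 2 of 13 rose and 3 fell, against 28.8% of all genes called. Dnmt3b, a de novo methyltransferase, rose there (1.22 ± 0.27), while Dnmt3l and the demethylating enzyme Tet1 (-2.85 ± 0.63) fell. Around Dppa3 on chromosome 6, 7 neighbours were tested in stem cells, of which 2 rose in the triple knockout, Nanog (0.71 ± 0.07) and Clec4a1 (2.09 ± 0.37). In Ythdf3-/-, where 2.84% of all genes were called and Dppa3 did not pass, 3 of the 7 rose, Nanog (0.52 ± 0.07), Slc2a3 (0.25 ± 0.07) and Apobec1 (0.83 ± 0.24). In Mettl3-/- 3 rose, Nanog (0.35 ± 0.07) and Apobec1 (0.67 ± 0.24) among them, and the glucose transporter Slc2a3 fell (-0.41 ± 0.08).

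The relatives and neighbours of Dppa5a include other KH-domain genes of the oocyte. Of 7 tested in stem cells, 3 rose in the triple knockout, Khdc3 (2.12 ± 0.51), Khdc1a (3.08 ± 0.45) and Khdc1c (2.64 ± 0.55). In Mettl3-/- Khdc3 (2.65 ± 0.44) and Khdc1a (2.50 ± 0.49) rose, while Ooep, the neighbour that encodes a subcortical maternal complex protein, fell by 0.71 ± 0.09 on the log2 scale and Mto1 fell too. In GV oocytes 9 were tested and 2 rose, Khdc1a (1.87 ± 0.44) and Khdc1b (0.69 ± 0.21). The Khdc1 genes are close copies, so how reads divide between them is uncertain. The list of maternal factors holds Khdc3 and Ooep again, so it is not separate from the genes above. Of its 6 genes tested in stem cells, 3 rose in the triple knockout, the same Khdc3 among them, with the histone chaperone Npm2 at 2.86 ± 0.52. In GV oocytes 2 of 10 rose, Nlrp5 (1.33 ± 0.37) and Zfp36l2 (1.58 ± 0.43), and Btg4, an adaptor of maternal mRNA decay, fell (-1.65 ± 0.23).

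Pluripotency genes split in direction, where 25.1% of all genes were called in the triple knockout, 30.4% in Mettl3-/- and 28.8% in GV oocytes. Of 17 naive genes, 5 rose and 6 fell in the triple knockout, with Fbxo15 at 1.59 ± 0.07 and Klf5 at -0.72 ± 0.06. In Mettl3-/- 6 rose and 5 fell, with Klf2 at 0.88 ± 0.08 and Klf5 at -0.99 ± 0.07. Of 9 core genes, 5 rose and 1 fell in the triple knockout, where Trim28 was at 0.38 ± 0.08 and Lin28a at -1.49 ± 0.27, and 2 rose and 4 fell in Mettl3-/-. In GV oocytes 3 of 12 naive genes rose, Zfp42 (2.89 ± 0.35) and Stat3 (1.16 ± 0.20) among them, and Fbxo15 fell (-1.82 ± 0.36). No list could hold a call in post-GV oocytes without the batch term, where 0 of 13910 genes were called. The median over all genes was near 0 in each stem cell comparison, 0.04 in GV oocytes and -0.09 in post-GV oocytes.

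**Figure D5:**
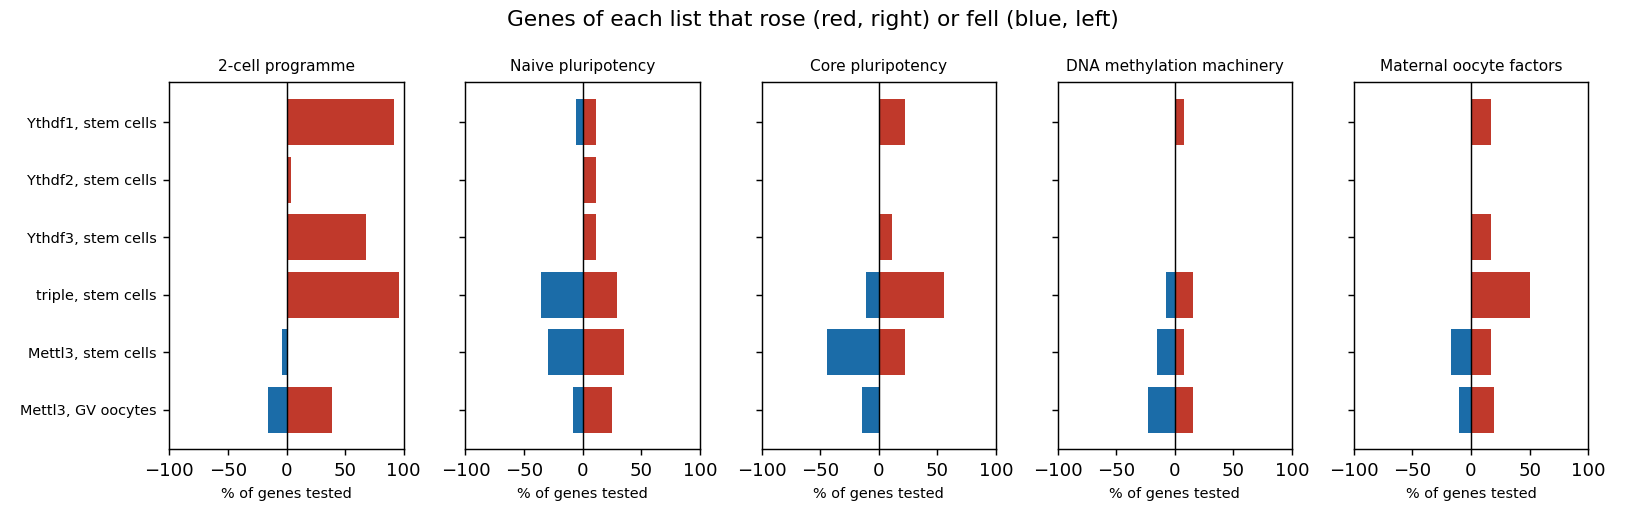
Share of tested genes of each list that rose (right of 0) or fell (left of 0), in percent, by comparison. The 2-cell programme stands at 24 of 25 genes risen in the triple knockout and at 0 of 25 in Mettl3-/- stem cells. Of all genes, 25.1% and 30.4% were called there, and the lists were chosen with earlier results of these data known.

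The genes whose pattern was most like that of each member over the 12 stem cell libraries were ranked by Pearson r of log2 CPM among 10266 genes. Dppa2 was most like Dazl (0.98), a germ-cell RNA-binding protein, then Prnp (0.95) and Tcf7 (0.95). Dppa3 was most like Thy1 (0.94), which is among the feeder markers above, Wrnip1 (0.92) and Naalad2 (0.91). Dppa4 was most like Fam111a (0.88), Tmed8 (0.88) and Tomm34 (0.87). For Dppa5a the 3 were Got1l1 (0.96), Pnrc1 (0.95) and Abhd4 (0.95). Over the 7 GV libraries Dppa3 was most like Pramef8 (1.00), Hsbp1 (0.99) and Efhb (0.99) among 7469 genes. Among the members in GV oocytes, Dppa3 had an r of 0.96 with Dppa4, 0.91 with Dppa5a and -0.79 with Dppa2. These values describe libraries that share their groups and depth.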

How the data were processed

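Per the submitters' processing notes, CASAVA 1.8.2, cutadapt, STAR 2.4.2a, DESeq2 and build mm10 were used; their roles are not stated. The authors deposited whole-number read counts per gene, used here as deposited, and the authors' normalized signal columns, counts divided by a size factor per library, were not tested. The authors' log2 fold changes and adjusted p-values were copied and are named where printed. Counts were tested per table with edgeR 4.0.16 (limma 3.58.1, R 4.3.3): TMM scaling, its expression filter by group, quasi-likelihood fit, Benjamini-Hochberg adjustment over all tested genes, calls under 0.05. All 12 stem cell libraries shared 1 fit. Standard errors were derived from the reported p. Scripts were tested on simulated data.

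Alternatives were RLE scaling, DESeq2 1.42.0, no expression filter, a filter of 5 CPM, a replicate block, a batch term and leaving out each library. Same-numbered GV libraries deviated together (r 0.622, 0.116 and 0.386), though knockout 3 with control 2 had 0.208. They were taken as paired in the replicate block only. The GV changes and adjusted p-values in Results come from the fit without pairs. Genes, lists and tests were chosen with earlier results of these data known. Named genes were the 4 members, the 3 smallest p-values of each list and the 3 most alike genes per member, with at least 4 mean log2 CPM and predicted symbols left out. Transcripts and coordinates came from GENCODE M21.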

Additional observations from a re-analysis of the deposited data

Results flagged for a closer look

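In stem cells 2 tests of the triple knockout against the sum of its single knockouts passed in edgeR, where 1.88% of all genes were called. The Dppa3 change was -1.50 on the log2 scale from that sum and the Dppa5a change -0.77, both below it. DESeq2 called neither (adjusted p = 1 for Dppa3 and 0.38 for Dppa5a). The edgeR call for Dppa3 was also lost without wild type A, wild type B, Ythdf3-/- A or triple knockout B (adjusted p of 0.0709, 0.272, 0.159 and 0.057). For Dppa5a the single knockouts rose by 0.24 to 0.32 and the triple knockout changed by 0.06. DESeq2 called none of these single rises.

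Changes of opposite sign for the same lost gene in 2 cell types stood out in 2 cases, with no overlap between knockout and control libraries. The share of all genes without overlap was not counted. Loss of Mettl3 moved Dppa5a by 1.48 in GV oocytes and by -0.39 in stem cells, a difference of 1.87. Loss of Ythdf2 moved Dppa4 by 4.20 in post-GV oocytes and by -0.34 in stem cells, a difference of 4.54, with neither change called by edgeR without a batch term. With the inferred batch as a term the post-GV change was 3.97 (edgeR adjusted p = 0.00464). Without Ythdf2-/- library 1 it was 1.56, so its size rests on that library. Neither difference was tested, because the tables were normalised separately. The GV controls were the 1 group of at least 4 libraries, and none of its libraries stood far from the others for any of the 4 genes.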

How the results depend on the processing

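Of the log2 changes of single genes recomputed under alternatives, 339 kept direction and side of the threshold, 11 became called, 17 lost the call and 3 reversed. The reversed ones, all uncalled, were Dppa4 in Ythdf3-/- without wild type B (-0.02) or Ythdf3-/- B, and in Mettl3-/- without Mettl3-/- B. Over the left-out libraries the Dppa4 change ran from -0.089 to 0.14 in Ythdf3-/- and from -0.31 to 0.12 in Mettl3-/-. DESeq2 called 1 of 4 members in Ythdf1-/-, 0 in Ythdf2-/-, 0 in Ythdf3-/- and 0 beyond the sum of single knockouts, and 6, 0 and 5 group pairs for Dppa3, Dppa4 and Dppa5a. Leaving out 1 stem cell library left 1 library in its group. In each such fit fewer of all genes were called than with every library. A member call lost in such a fit is therefore not by itself a trait of that gene. In post-GV oocytes 1 member was called by DESeq2, where 94 of 14719 genes were called, and 2 with the batch term, where 1.85% were. DESeq2 with the batch term, a setting chosen after seeing the data, called 2 members and 716 of 13143 genes. The first batch alone, also chosen after seeing the data, held 1 Ythdf2-/- library, so only its log2 differences are given. The cause of these differences was not tested.

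Genes called by edgeR and DESeq2 were 412 and 52 in Ythdf1-/-, 228 and 10 in Ythdf2-/-, 340 and 25 in Ythdf3-/-, 2996 and 684 in the triple knockout, 3630 and 1156 in Mettl3-/-, 225 and 4 beyond the sum, 785 and 394 in spermatids (341 with the 5 CPM filter) and 0 and 94 in post-GV oocytes. In GV oocytes edgeR called 3907 genes and DESeq2 more, 5253, and edgeR called 2254 to 4243 on leaving out 1 library. With the replicate block, the paired GV fit called 4540 genes against 3907 and changed no member call. Stem cell and post-GV numbers were only shared (r 0.00251 to 0.151, and 0.563 and -0.701), and the post-GV block called 3 genes. No gene symbol was duplicated, so no row was merged. Leaving out spermatid libraries and a spermatid block were not run, with 1 wild type library. Stem cell depth, 612598 counts at the lowest, limits the weakly expressed genes.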
